A study of Mus musculus with 96 samples.

Results

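Genes of glutathione, peroxiredoxin and thioredoxin metabolism, with the gene of the transcription factor NRF2 (Nfe2l2), were followed in brown and white fat of wild-type and Ucp1-KO mice. The set holds the soluble glutathione S-transferases (Gst), the glutathione peroxidases (Gpx), the peroxiredoxins (Prdx), the superoxide dismutases (Sod), the thioredoxin reductases (Txnrd), and Txn1, Txn2, Nqo1, Gclc, Gclm, Gsr, Gss, Srxn1, Cat and Nfe2l2. Members were taken by symbol, pseudogenes were left out, and each gene was read from its transcript row with the highest mean over all libraries. This gave 52 of the 29072 genes with an identifier in the table. Of the 52, 45 passed a filter on low values and were tested, and Gsta1, Gsta2, Gstm3, Gstt4, Gpx2, Gpx5 and Gpx6 did not.

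Superoxide dismutases turn superoxide into hydrogen peroxide, which catalase, the glutathione peroxidases and the peroxiredoxins reduce, the peroxidases at the expense of glutathione and most peroxiredoxins at the expense of thioredoxin. Glutathione is made by glutamate-cysteine ligase (Gclc and Gclm) and glutathione synthetase (Gss) and recycled by glutathione reductase (Gsr), and sulfiredoxin (Srxn1) repairs peroxiredoxins that peroxide has overoxidised. NRF2 is kept low by KEAP1 and, when released, binds antioxidant response elements of genes such as Nqo1, Gclc, Gclm, Srxn1 and Txnrd1. Brown fat is dense in mitochondria and makes heat through uncoupling protein 1 (UCP1).

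The mice were C57BL/6J males, wild type or Ucp1-KO, kept for 4 weeks under 1 of 3 conditions: 20 °C with a control diet (13% of its energy as fat), 30 °C, thermoneutral for mice, with the same diet, or 30 °C with a high fat diet (48% of its energy as fat). Each of these 6 groups had 8 animals, and interscapular brown fat (iBAT) and inguinal white fat (iWAT) of each were sequenced, 96 libraries in all. The labels give the knockout genotype as UCP1(-/-), called Ucp1-KO here, and the age is not given in the sources used here. The 17 comparisons take up genotype, temperature, diet and depot, and several share a group of libraries: the genotype difference at 30 °C, the temperature difference and the diet difference all use the 30 °C control groups. Levels are RPKM (reads scaled by transcript length and by library size), and a group of 8 libraries is given by its median with its lowest and highest library in parentheses. How many of all genes had groups without overlap was not counted. Statements on overlap therefore describe the genes named and mark nothing particular to the set. Differences are on the scale log2(RPKM + 1) and come from a limma fit, and a gene passed the test, or was called higher or lower, where its p adjusted over all genes of the fit was under 0.05.

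The steps between low values put the libraries at about 8.9 to 19.2 M reads (median 11.84 M). These are the smallest depths that fit the steps, and their multiples fit too. Ucp1 was at 2428 to 9281 RPKM in the wild-type iBAT libraries and at 546 to 1145 RPKM in those labelled Ucp1-KO, without overlap. On control diet wild-type iBAT was at 4016 RPKM (2428 to 4550) at 20 °C and 8200 RPKM (7328 to 9281) at 30 °C. Ucp1 was thus lower at 20 °C there, a difference of -1.14 (SE 0.12, limma adjusted p = 3.1e-10). The same difference was 0.47 in Ucp1-KO iBAT, 2.37 in wild-type iWAT and 1.88 in Ucp1-KO iWAT, and the cause was not tested. Between genotypes in iWAT, Ucp1 was higher in the libraries labelled Ucp1-KO, by 1.97 at 30 °C on control diet and by 1.48 at 20 °C. How the gene was disrupted was not stated, and reads counted for Ucp1 therefore do not check the genotype of the iWAT libraries. Libraries are numbered in order within a group, and 7 stand apart by a low median correlation with the others of their group: libraries 7 and 8 of Ucp1-KO iBAT at 30 °C on control diet, library 6 of wild-type iWAT at 20 °C, library 7 of Ucp1-KO iWAT at 30 °C on control diet, and libraries 1, 4 and 5 of Ucp1-KO iWAT on high fat diet. Brown depot markers (such as Cidea and Zic1) summed to 2285 RPKM (2005 to 2708) in wild-type iBAT and 83.8 RPKM (64.5 to 137) in wild-type iWAT at 30 °C on control diet. These are whole tissues, in which fewer cells of a type and less RNA per cell cannot be told apart.

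In Ucp1-KO iBAT at 30 °C on control diet the genes of glutathione synthesis and recycling, Nqo1 and Nfe2l2 were higher than in wild type, together with Srxn1, Prdx1 and Txnrd1. The 6 members Gclc, Gclm, Gss, Gsr, Nqo1 and Nfe2l2 all passed upward, with a median difference of 0.99. Over the whole set 20 of 45 tested members were higher and 8 lower, against 54.2% of all genes higher and 10.5% lower, so the set as a whole was not called higher more often than genes at large. The scaling of the libraries weighs on this count: the median difference over all genes was 0.27 as deposited and 0.06 after median-ratio scaling, and the members gave 13 higher and 19 lower after median-ratio scaling (all genes 33.2% and 24.0%) and 13 higher and 21 lower after quantile normalization (all genes 24.0% and 33.2%). The same median went from -0.12 to -0.02 for temperature in wild-type iBAT and from -0.34 to -0.08 in Ucp1-KO iBAT. It went from 0.25 to 0.04 for genotype in iBAT on high fat diet and from -0.27 to -0.05 for genotype in iWAT at 20 °C. For temperature in Ucp1-KO iWAT it went from -0.25 to -0.05, and between depots from -0.43 to -0.21. The counts of members are given under both scalings there too. Without the libraries that stand apart 18 higher and 11 lower were called. Srxn1, Nqo1, Prdx1, Gsr, Txnrd1, Gclc, Gclm, Nfe2l2, Gstp2, Gpx1 and Prdx6 were called higher under both other scalings too.

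Nfe2l2 was at 26.6 RPKM (23.4 to 29.8) in wild-type iBAT at 30 °C and at 50.7 RPKM (42.3 to 56.5) in Ucp1-KO, a difference of 0.91 (SE 0.08, limma adjusted p = 4.3e-13). Every Ucp1-KO library was above every wild-type library. Nqo1, an NRF2-driven quinone reductase, was a low gene in wild type, at 1.49 RPKM (0.969 to 2.90), and stood at 7.20 RPKM (4.09 to 12.5) in Ucp1-KO, 4.54 times the wild-type mean. Its groups did not overlap either, and the difference was 1.65 (SE 0.18, limma adjusted p = 6.9e-11). Gclc, the catalytic subunit of the ligase that limits glutathione synthesis, was at 10.4 RPKM (9.71 to 14.3) in wild type and 24.6 RPKM (16.9 to 28.2) in Ucp1-KO, again without overlap, a difference of 1.01 (SE 0.11, limma adjusted p = 8.9e-11). Its modifier subunit Gclm was at 28.8 RPKM (20.4 to 44.2) and 58.5 RPKM (37.2 to 85.4), a difference of 0.96 (SE 0.16, limma adjusted p = 8.7e-07). Here 1 Ucp1-KO library, library 8, fell inside the wild-type range. Gsr, which returns oxidised glutathione to its reduced form, was at 11.2 RPKM (9.51 to 18.4) and 28.4 RPKM (25.0 to 46.5), without overlap, a difference of 1.25 (SE 0.12, limma adjusted p = 4e-12). Gss, the last enzyme of glutathione synthesis, differed by 0.41 (SE 0.11, limma adjusted p = 0.00088), and this call was lost under another scaling.

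Srxn1 had the largest difference of the set in this comparison. The wild-type libraries were at 49.4 RPKM (37.8 to 108) and the Ucp1-KO libraries at 293 RPKM (214 to 433), 4.77 times the wild-type mean, a difference of 2.30 (SE 0.19, limma adjusted p = 8.3e-14). The groups did not overlap. Prdx1, a cytosolic peroxiredoxin, was at 166 RPKM (135 to 194) and 393 RPKM (261 to 571), also without overlap, a difference of 1.26 (SE 0.12, limma adjusted p = 3.3e-12). The mitochondrial peroxiredoxins went the other way, Prdx3 (-0.16) and Prdx5 (-0.35) being lower with overlapping ranges. Cytosolic Prdx2 (-0.02) did not pass. Prdx6, the peroxiredoxin that uses glutathione, was higher by 0.49 (SE 0.10), while the calls of Prdx4 (0.38) and Prdx6b (0.31) were lost under another scaling. Prdx6b is a near copy of Prdx6 and moved with it over the 96 libraries (Pearson r 0.935 of log2 values), so its own level is uncertain.

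In the thioredoxin system the cytosolic reductase Txnrd1 was at 43.4 RPKM (37.8 to 53.3) in wild type and 88.1 RPKM (75.4 to 152) in Ucp1-KO, a difference of 1.09 (SE 0.11, limma adjusted p = 2.9e-11) with no overlap. The mitochondrial reductase Txnrd2 was lower, with a difference of -0.24, and mitochondrial Txn2 (-0.05) did not pass. Cytosolic thioredoxin, Txn1, differed by 0.39 (SE 0.09) and Txnrd3 by 0.20 (SE 0.08), and both calls were lost under another scaling.

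Of 17 transferases tested, 3 were higher and 4 lower, against 54.2% and 10.5% of all genes, and the counts were 2 higher and 9 lower after median-ratio scaling and 1 higher and 10 lower after quantile normalization. Gstp2 was at 1.30 RPKM (0.679 to 2.38) and 3.47 RPKM (2.83 to 4.28), without overlap, a difference of 0.91 (SE 0.17). It is nearly identical to Gstp1, which was at 15.6 RPKM (10.9 to 20.8) in wild type and differed by 0.18 without passing, so the division of reads within the pair is uncertain. Gsta3 (0.87, SE 0.25) and Gstz1, an isomerase of tyrosine breakdown (0.43, SE 0.19), were called higher as deposited but not under another scaling, and Gstz1 also not without the libraries that stand apart. The lower calls were Gsto2 (-0.45), Gstm4 (-0.34), Gstm2 (-0.33) and Gstt3 (-0.55). The row chosen for Gstt3 followed its neighbour Ddt over the libraries (Pearson r 0.976 of log2 values), and in the RefSeq row of Gstt3 the difference was 0.11 (limma adjusted p = 0.43), so no direction is given for Gstt3. The Gstm genes are close copies in 1 cluster, and their single values are uncertain in the same way as those of Gstp1 and Gstp2.

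Among the peroxidases Gpx1, the main cytosolic enzyme, was at 322 RPKM (302 to 401) in wild type and 452 RPKM (412 to 545) in Ucp1-KO, without overlap, a difference of 0.48 (SE 0.08, limma adjusted p = 2.1e-06). Gpx4, which reduces lipid peroxides in membranes, was lower, at 101 RPKM (91.1 to 139) and 64.2 RPKM (57.4 to 115), a difference of -0.52 (SE 0.12) with overlapping ranges. Gpx3, the secreted peroxidase and the member with the highest median level in 5 of the 6 iBAT groups, differed by -0.36 (SE 0.19) and Gpx8, of the endoplasmic reticulum, by -0.21 (SE 0.14), and neither passed. The call of Gpx7 (0.55) was lost under another scaling. So was that of Sod2, the mitochondrial dismutase (0.30, SE 0.08), while cytosolic Sod1 (0.15), extracellular Sod3 (0.05) and catalase (-0.07) did not pass.

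**Figure D1:**
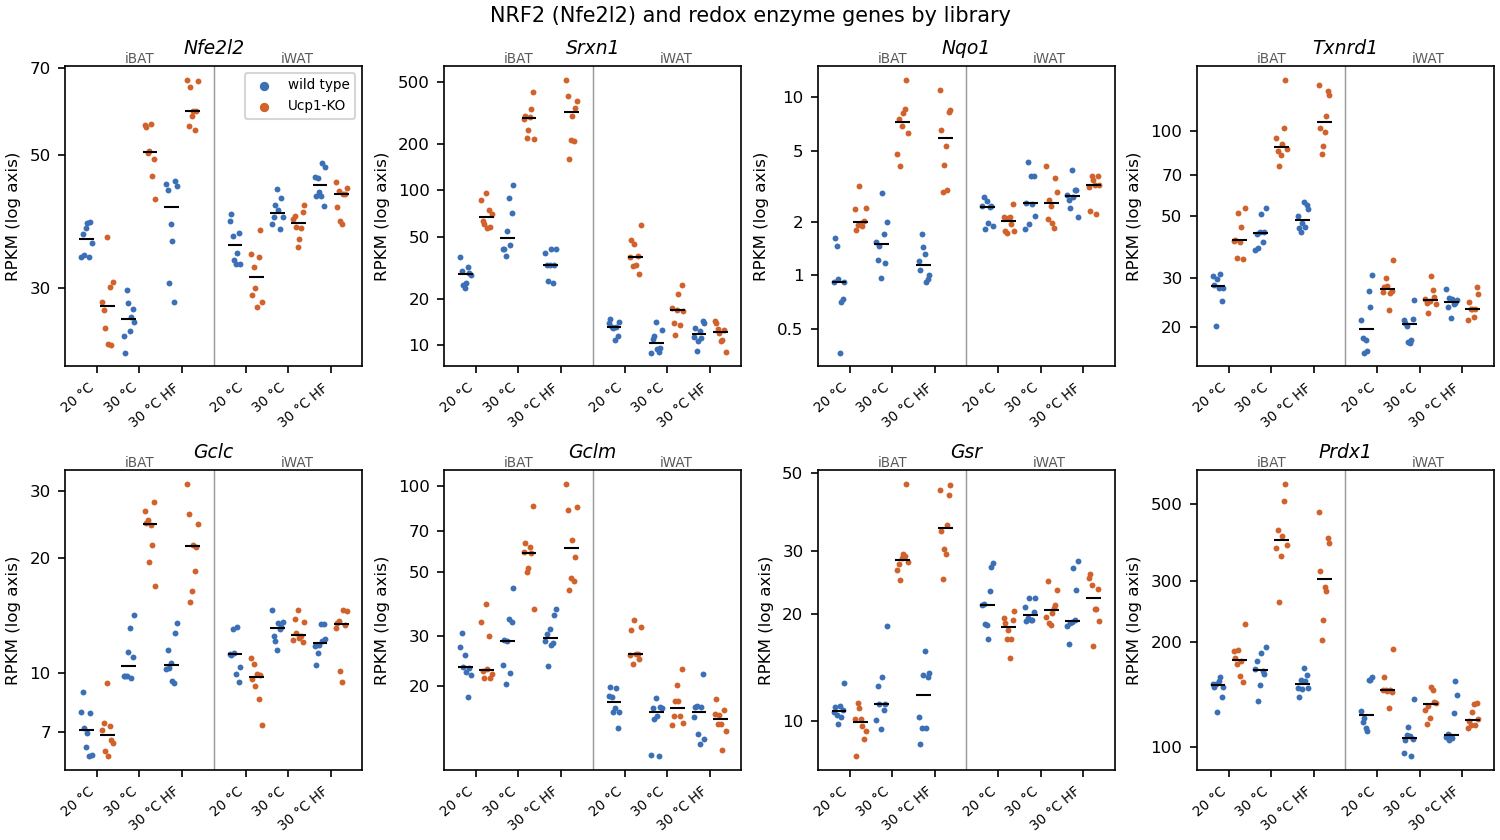
Level of 8 genes in each of the 96 libraries (RPKM, log axis), by depot, temperature and diet (HF, high fat). Blue points are wild type, orange points Ucp1-KO, and bars are medians of 8 libraries; in iBAT at 30 °C the Ucp1-KO libraries lie above the wild-type libraries on both diets, with 1 exception for Gclm on control diet, and Srxn1 medians there are 49.4 and 293 RPKM on control diet.

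The regions around the start sites were searched for the core of the antioxidant response element, TGACNNNGC, on both strands, because these genes moved together. RefSeq promoters of GRCm38.p6, 300 bases each with 250 before the start and 50 after it, were matched to 45 of the 52 members. Gclc, Gsr, Gsta4, Gstt2, Prdx6, Prdx6b and Sod3 had no entry and were not searched. The core was in 9 of the 45 (Gclm, Gsta3, Gstm5, Gstm7, Nfe2l2, Prdx1, Sod1, Srxn1 and Txnrd1), against 14.0% of 27025 symbols with a promoter and 12.4% of 32851 promoters. The related AP-1 sequence TGAGTCA was in 5 (Gstm5, Gstp1, Gstp2, Prdx1 and Srxn1), against 5.95% of symbols. The members that hold the core and were called higher in Ucp1-KO iBAT at 30 °C are shown, each read 5′ to 3′ on the strand of its gene, with matches of either sequence, on either strand, in capitals. For Srxn1 all 250 bases before the start are given and a short window around the core, for the others a window around the core before the start.
Srxn1 (chr2:152105274-152105523, plus strand): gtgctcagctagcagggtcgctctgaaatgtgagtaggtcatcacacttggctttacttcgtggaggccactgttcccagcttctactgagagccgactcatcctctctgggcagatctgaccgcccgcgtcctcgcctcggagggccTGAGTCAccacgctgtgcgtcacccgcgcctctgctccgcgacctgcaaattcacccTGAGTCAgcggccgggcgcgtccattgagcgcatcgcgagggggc
Srxn1 core (chr2:152105542-152105570, plus strand): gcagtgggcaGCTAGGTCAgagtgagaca
Prdx1 (chr4:116685440-116685499, plus strand): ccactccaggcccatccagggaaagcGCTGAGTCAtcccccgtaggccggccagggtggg
Txnrd1 (chr10:82859088-82859147, plus strand): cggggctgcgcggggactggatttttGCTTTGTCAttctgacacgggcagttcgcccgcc
Gclm (chr3:122245397-122245456, plus strand): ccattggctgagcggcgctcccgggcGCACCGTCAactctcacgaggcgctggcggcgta
Nfe2l2 (chr2:75704870-75704913, minus strand): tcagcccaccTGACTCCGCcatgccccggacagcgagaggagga
Gsta3 (chr1:21240438-21240497, plus strand): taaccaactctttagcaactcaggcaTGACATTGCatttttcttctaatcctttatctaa
The Srxn1 core lies 29 bases after the start and its TGAGTCA matches 102 and 45 bases before it. The core begins 133 bases before the start in Prdx1, where TGAGTCA overlaps it, 92 in Txnrd1, 134 in Gclm, 240 in Nfe2l2 and 121 in Gsta3. A match is a description of these letters. Nqo1 has no match in its window and differed by 1.65, and Sod1 has a match and differed by 0.15. Gstm5 and Gstm7 also hold the core and did not pass. Of the members shown, Gsta3 lost its call under another scaling.

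On high fat diet Srxn1, Gclc, Gclm, Gss, Gsr, Nqo1 and Nfe2l2 were again higher in Ucp1-KO iBAT, and Gpx3 and Gpx8 were lower. The call of Gss was lost under another scaling. Of 45 members 22 were higher and 11 lower, against 52.8% of all genes higher and 11.0% lower, with 17 higher and 17 lower after median-ratio scaling (all genes 30.0% and 23.7%) and 17 higher and 17 lower after quantile normalization (all genes 22.9% and 32.8%). Srxn1 was at 33.1 RPKM (25.2 to 41.6) in wild type and 321 RPKM (159 to 516) in Ucp1-KO, 9.23 times the wild-type mean and without overlap, a difference of 3.10 (SE 0.19, limma adjusted p = 1.4e-17). Gsr was at 11.8 RPKM (8.59 to 15.7) and 34.9 RPKM (25.1 to 46.2), a difference of 1.54 (SE 0.12, limma adjusted p = 1.2e-14). Nqo1 (1.61, SE 0.18), Txnrd1 (1.16, SE 0.11), Gclm (1.05, SE 0.16), Prdx1 (1.03, SE 0.12), Gclc (0.91, SE 0.11) and Nfe2l2 (0.64, SE 0.08) were higher as well. None of these 8 genes had overlapping groups, which was not counted over all genes, and all 8 were also called under both other scalings. Among the transferases Gstp2 (1.14, SE 0.17), Gsta3 (1.10, SE 0.25), Gstz1 (0.85, SE 0.19), Gstp1 (0.70, SE 0.14) and Gstt1 (0.62, SE 0.14) were higher. Txn1, at 89.1 RPKM (73.5 to 93.3) in wild type and 143 RPKM (124 to 155) in Ucp1-KO, was higher without overlap.

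Gpx3 was at 1202 RPKM (1065 to 2266) in wild type and 672 RPKM (450.2 to 1001) in Ucp1-KO on high fat diet, without overlap, a difference of -1.05 (SE 0.19, limma adjusted p = 4.2e-06). Gpx8 was at 138 RPKM (64.3 to 184) and 72.0 RPKM (41.7 to 92.6), where the ranges overlapped, a difference of -0.86 (SE 0.14, limma adjusted p = 1.1e-06). Gpx4 (-0.64), Prdx5 (-0.62), Txnrd2 (-0.59) and Gsta4, which clears aldehydes from lipid peroxidation (-0.57), were the next lower calls. Gpx1 (0.67) was higher. Whether the genotype difference itself differed between the diets was not tested.

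Markers of other cells moved with both comparisons. The summed level of 11 macrophage markers was 227 RPKM (202 to 343) in wild-type iBAT and 1521 RPKM (398 to 2014) in Ucp1-KO at 30 °C on control diet, and 206 RPKM (159.5 to 468) and 952 RPKM (549 to 1637) on high fat diet. Over all marker lists the calls in Ucp1-KO on control diet were 11 of 11 macrophage, 6 of 6 T cell, 3 of 5 endothelial, 5 of 5 fibroblast, 5 of 5 adipocyte, 1 of 6 brown depot and 1 of 3 inguinal depot markers higher, and 4 of 6 brown depot markers lower. On high fat diet the calls were 11 of 11 macrophage, 6 of 6 T cell, 3 of 3 B cell, 6 of 7 skeletal muscle, 5 of 5 fibroblast, 4 of 5 adipocyte, 2 of 6 brown depot and 2 of 3 inguinal depot markers higher, and 2 of 5 endothelial, 5 of 5 erythroid and 4 of 6 brown depot markers lower. No macrophage, T cell or fibroblast marker was at 0 in a group. The part of these in the results was not tested. In wild-type iWAT at 30 °C the macrophage sum was 1570 RPKM (1117 to 1963) while Srxn1 was at 10.4 RPKM (8.98 to 14.1). Within Ucp1-KO iBAT at 30 °C on control diet, library 7 had the lowest macrophage sum (398 RPKM) and the highest Srxn1 (433 RPKM), and also the highest Nqo1, Txnrd1, Gsr, Gclm, Gclc and Prdx1. It is among the libraries that stand apart, and without libraries 7 and 8 the differences were 2.27 for Srxn1, 1.54 for Nqo1, 1.15 for Gsr, 0.97 for Gclm, 1.03 for Gclc and 1.18 for Prdx1. Values of another depot and of 1 library are no test of the part of macrophages, which was not tested.

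**Figure D2:**
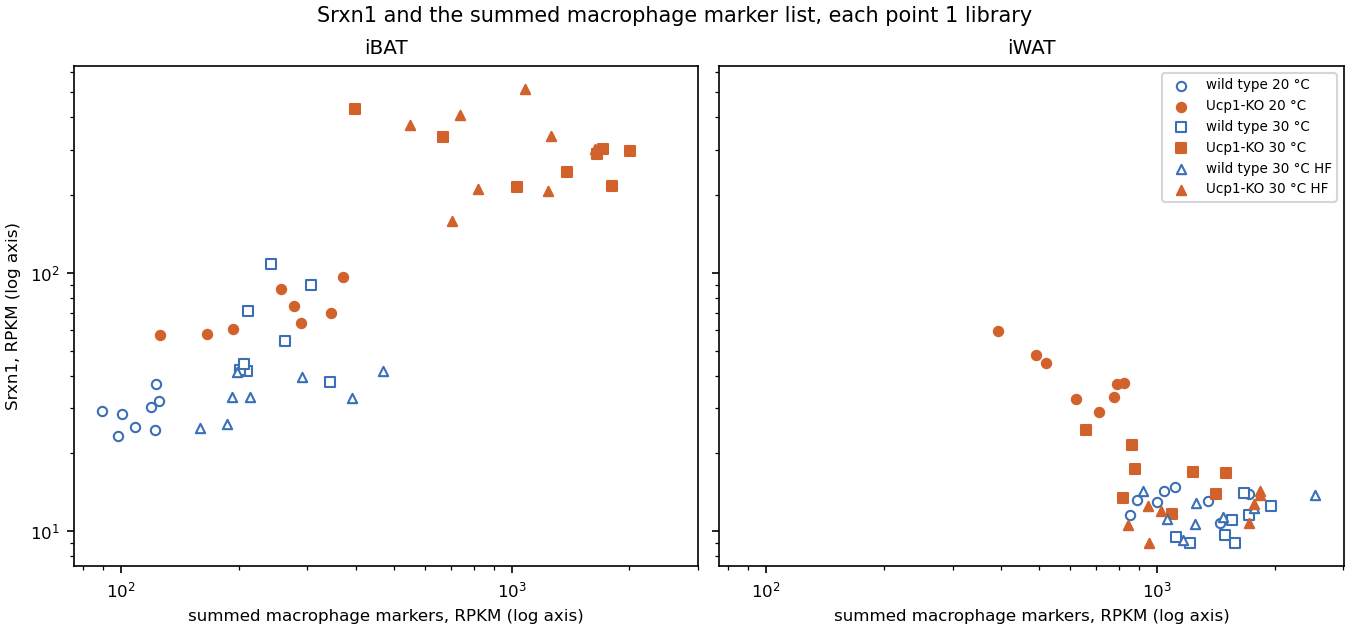
Srxn1 (RPKM, log axis) against the summed level of 11 macrophage markers (RPKM, log axis), each point 1 library, iBAT left and iWAT right. Open blue symbols are wild type, filled orange symbols Ucp1-KO, and the shape gives temperature and diet. In iBAT the Ucp1-KO libraries at 30 °C are high on both axes. Wild-type iWAT libraries at 30 °C on control diet have macrophage sums of 1117 RPKM or more and Srxn1 of 14.1 RPKM or less. The part of macrophages in Srxn1 was not tested.

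At 20 °C the genotypes differed in other members of the set. Srxn1, Nqo1 and Txnrd1 were still higher in Ucp1-KO iBAT, Gclc, Gclm and Gsr did not pass, and Nfe2l2, Gpx1, Gpx3 and Gpx8 were lower than in wild type. Of 45 members 11 were higher and 14 lower, against 24.7% of all genes higher and 13.1% lower. Srxn1 was at 28.9 RPKM (23.3 to 37.1) in wild type and 67.0 RPKM (57.4 to 96.7) in Ucp1-KO, a difference of 1.26 (SE 0.19, limma adjusted p = 5.7e-07) with no overlap. Nqo1 (0.72, SE 0.18) and Txnrd1 (0.62, SE 0.11) were higher without overlap too. Gss was at 10.8 RPKM (8.44 to 14.4) and 20.3 RPKM (17.1 to 28.3), a difference of 0.88 (SE 0.11, limma adjusted p = 3.6e-09), and Prdx6 at 136 RPKM (119.8 to 167) and 251 RPKM (211 to 331), a difference of 0.85 (SE 0.10, limma adjusted p = 4.3e-10). Neither of these 2 genes had overlapping groups. Gclc (-0.02, SE 0.11), Gclm (0.12, SE 0.16) and Gsr (-0.14, SE 0.12) did not pass, and Nfe2l2 was lower, with a difference of -0.35 (SE 0.08). Prdx1 (0.29, SE 0.12) passed only where the libraries that stand apart were left out.

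Gpx3 had the largest difference of the set at 20 °C. It was at 952 RPKM (809 to 1290) in wild type and 296 RPKM (175 to 407) in Ucp1-KO, so that the wild-type mean was 3.30 times the Ucp1-KO mean, a difference of -1.77 (SE 0.19, limma adjusted p = 9.2e-11). Gpx8 was at 141 RPKM (110.3 to 180.3) and 67.7 RPKM (50.6 to 78.0), a difference of -1.15 (SE 0.14, limma adjusted p = 5.8e-09). Gpx1 was at 289 RPKM (267 to 366) and 184 RPKM (159 to 211), a difference of -0.73 (SE 0.08, limma adjusted p = 6.9e-10). For all 3 peroxidases every Ucp1-KO library was below every wild-type library. Gstz1 was at 177 RPKM (122 to 219.5) in wild type and 80.3 RPKM (62.9 to 90.4) in Ucp1-KO, likewise without overlap, a difference of -1.11 (SE 0.19, limma adjusted p = 7.4e-06). The macrophage sums at 20 °C were 114 RPKM (89.6 to 126) in wild type and 267 RPKM (126 to 371) in Ucp1-KO. The calls in Ucp1-KO were 8 of 11 macrophage, 1 of 6 T cell, 1 of 5 endothelial, 5 of 5 erythroid, 3 of 6 brown depot and 1 of 3 inguinal depot markers higher, and 1 of 11 macrophage and 1 of 5 adipocyte markers lower. Their part in the result was not tested.

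Set against 30 °C, the lower temperature went with less Srxn1, Txnrd1 and Gclc in both genotypes and with opposite changes of Nfe2l2. In wild-type iBAT 12 of 45 members were higher at 20 °C and 8 lower, against 11.6% of all genes higher and 33.0% lower. After median-ratio scaling 17 were higher and 8 lower (all genes 20.7% and 20.9%), and after quantile normalization 12 and 11 (all genes 19.8% and 20.0%). In Ucp1-KO iBAT 11 were higher and 21 lower, against 13.9% of all genes higher and 59.5% lower, with 22 higher and 16 lower after median-ratio scaling (all genes 27.4% and 38.2%) and 18 higher and 17 lower after quantile normalization (all genes 33.6% and 29.5%). The temperature difference was larger in Ucp1-KO than in wild type, in the signed sense, for 8 members and smaller for 21, against 11.9% and 40.5% of all genes, with 11 higher and 17 lower after median-ratio scaling (all genes 19.7% and 28.4%) and 13 higher and 16 lower after quantile normalization (all genes 23.4% and 21.1%). Nfe2l2 was at 36.3 RPKM (33.8 to 38.7) in wild type at 20 °C, higher than at 30 °C by 0.43 (SE 0.08), and at 28.0 RPKM (24.1 to 36.6) in Ucp1-KO, where it fell, with a difference of -0.82 (SE 0.08). The responses differed by -1.26 (SE 0.11, limma adjusted p = 6.7e-12). Srxn1 differed with temperature by -0.97 (SE 0.19) in wild type and -2.01 (SE 0.19) in Ucp1-KO, and the responses differed by -1.04 (SE 0.27, limma adjusted p = 0.0014). The tests of the difference in response gave -1.38 (SE 0.17) for Gsr, -1.02 (SE 0.15) for Gclc, -0.85 (SE 0.22) for Gclm and -0.97 (SE 0.17) for Prdx1, all called. Those of Nqo1 (-0.93) and Txnrd1 (-0.47) were lost under another scaling. Within wild type Txnrd1 (-0.66) and Gclc (-0.56) were lower at 20 °C, and Nqo1 (-0.41) and Gclm (-0.26) did not pass. Within Ucp1-KO Gclc (-1.59), Nqo1 (-1.34), Txnrd1 (-1.13) and Gclm (-1.10) were lower. The marker calls at 20 °C were 3 of 6 brown depot markers higher, and 9 of 11 macrophage, 3 of 6 T cell, 5 of 5 endothelial, 5 of 5 fibroblast and 1 of 6 brown depot markers lower in wild type. In Ucp1-KO they were 4 of 6 brown depot markers higher, and 11 of 11 macrophage, 6 of 6 T cell, 1 of 3 B cell, 5 of 5 endothelial, 5 of 5 fibroblast, 3 of 5 adipocyte and 1 of 3 inguinal depot markers lower. For the difference in response 1 of 5 erythroid and 4 of 6 brown depot markers were called higher. Called lower were 11 of 11 macrophage, 5 of 6 T cell, 1 of 5 endothelial, 5 of 5 fibroblast and 2 of 5 adipocyte markers. The part of all these markers in the results was not tested.

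Txnrd2 was higher at 20 °C in both genotypes, at 27.4 RPKM (25.2 to 32.2) against 15.1 RPKM (12.4 to 15.9) in wild type and 31.1 RPKM (28.7 to 34.5) against 11.4 RPKM (9.80 to 16.8) in Ucp1-KO. The temperatures did not overlap in either genotype, and the differences were 0.91 (SE 0.11, limma adjusted p = 2.2e-09) and 1.31 (SE 0.11, limma adjusted p = 1.2e-14). Prdx3 rose by 0.65 in Ucp1-KO, and its rise of 0.22 in wild type was lost under another scaling. Sod2, another mitochondrial enzyme, did not pass in either genotype (0.07 and 0.03). Catalase, the peroxisomal enzyme, was higher at 20 °C in Ucp1-KO (0.52) and did not pass in wild type (0.05), and the difference in response passed (0.47, SE 0.11). In wild type the largest rises were those of Gstz1 (1.13, SE 0.19) and Gstm7 (1.09, SE 0.12), and Gss (-0.81, SE 0.11) and Gstm2 (-0.77, SE 0.11) were lower. Gsta4 (0.82 and 0.80) and Gstm4 (0.64 and 0.80) rose in both genotypes.

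Several peroxidases fell at 20 °C in Ucp1-KO iBAT, while Gpx4 rose (0.45). Gpx3 (-1.74, SE 0.19), Gpx1 (-1.33, SE 0.08) and Gpx8 (-1.20, SE 0.14) were lower there without overlap, and in wild type none of the 3 passed (-0.34, -0.11 and -0.27). The tests of the difference in response gave -1.41 (SE 0.26, limma adjusted p = 2.2e-05) for Gpx3, -1.22 (SE 0.12, limma adjusted p = 2.3e-11) for Gpx1 and -0.93 (SE 0.20, limma adjusted p = 0.00015) for Gpx8. For Gstz1 the difference in response was -1.54 (SE 0.27, limma adjusted p = 9.3e-06). Its own fall in Ucp1-KO (-0.41) was lost under another scaling and without the libraries that stand apart.

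**Figure D3:**
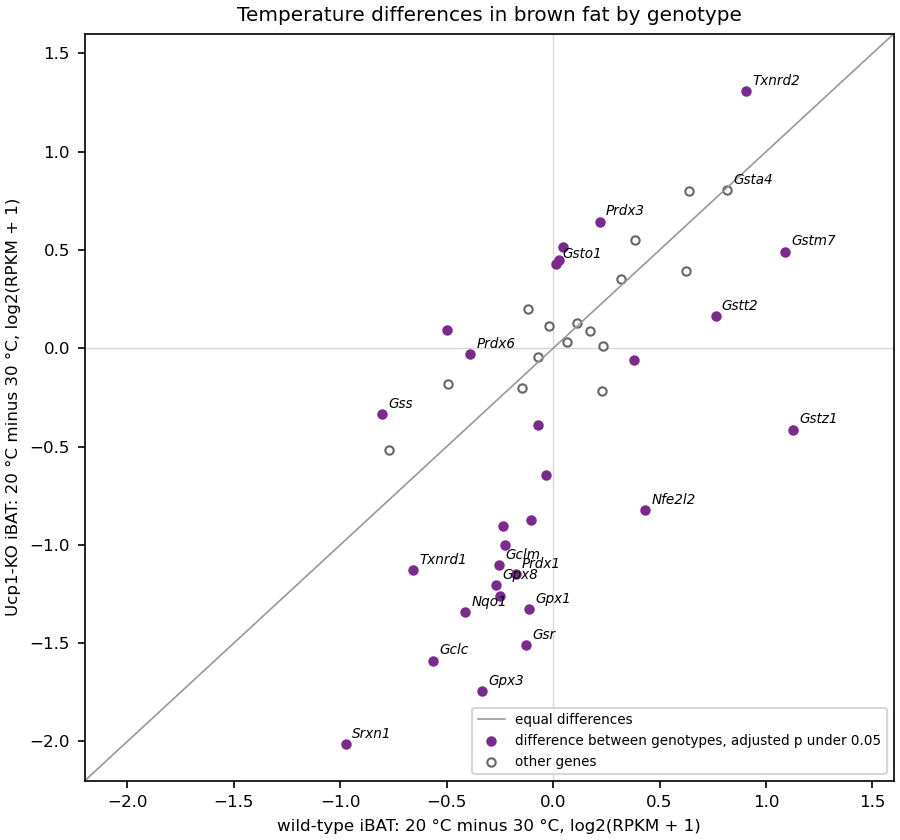
Difference between 20 °C and 30 °C on control diet in iBAT (log2(RPKM + 1)) of the 45 tested genes, wild type on the x axis and Ucp1-KO on the y axis. Filled points passed the limma test of the difference between genotypes and the grey line marks equal differences; Nfe2l2 and Gstz1 are above 0 in wild type and below 0 in Ucp1-KO, Srxn1 is lowest on both axes and Txnrd2 highest in Ucp1-KO.

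With the high fat diet Sod3 rose in iBAT of both genotypes, and Gpx8 and Gsta4 fell in both. In wild type 3 of 45 members were higher on high fat diet and 12 lower, against 18.5% of all genes higher and 14.5% lower. In Ucp1-KO 3 were higher and 10 lower, against 8.35% of all genes higher and 8.02% lower, and without the libraries that stand apart, both in the control group, 4 higher and 3 lower. The calls then lost were Gstm4, Gstm5, Gsto1, Nfe2l2, Prdx1, Prdx2, Prdx5 and Txn1, and Gsr and Txnrd1 were gained. Sod3 was at 147 RPKM (131 to 169) on high fat diet and 87.0 RPKM (80.2 to 94.8) on control diet in wild type, and at 140 RPKM (115 to 191) and 89.4 RPKM (79.3 to 97.99) in Ucp1-KO. The diets did not overlap in either genotype, and the differences were 0.74 (SE 0.08, limma adjusted p = 6.4e-10) and 0.67 (SE 0.08, limma adjusted p = 2e-08). Gpx8 differed by -0.45 (SE 0.14) in wild type and -1.09 (SE 0.14) in Ucp1-KO, and Gsta4 by -0.59 (SE 0.17) and -0.85 (SE 0.17). In wild type Nfe2l2 was higher (0.52, SE 0.08), Srxn1 lower (-0.74, SE 0.19), and Txn1 fell from 131 RPKM (114 to 163) to 89.1 RPKM (73.5 to 93.3) without overlap. Gstm4 (-0.89), Gstp1 (-0.58) and Gstz1 (-0.56) fell in wild type as well. The marker calls on high fat diet were 5 of 5 endothelial, 5 of 5 erythroid, 1 of 5 fibroblast, 1 of 5 adipocyte, 1 of 6 brown depot and 1 of 3 inguinal depot markers higher, and 1 of 6 T cell and 4 of 6 brown depot markers lower in wild type. In Ucp1-KO they were 1 of 5 endothelial, 1 of 5 fibroblast and 1 of 3 inguinal depot markers higher, and 3 of 6 brown depot markers lower, and their part in the results was not tested. In Ucp1-KO Nfe2l2 was higher (0.25) and Srxn1 (0.05) and Txnrd1 (0.24) did not pass. Txnrd1 in wild type (0.17) and Nqo1, Gclc and Gclm in either genotype did not pass, the last 3 with differences from -0.26 to 0.15.

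In iWAT at 30 °C on control diet Gpx8, Gsta4, Sod2, Gpx4, Prdx2, Prdx3 and Txn2 were higher in Ucp1-KO. Srxn1 and Txnrd1 were higher too, while Gclc, Gclm, Gss, Gsr, Nqo1 and Nfe2l2 did not pass. Of 45 members 18 were higher and 1 lower, against 7.54% of all genes higher and 16.2% lower, and the number higher ran from 15 without a filter on low values to 19 after median-ratio scaling. Of Gclc, Gclm, Gss, Gsr, Nqo1 and Nfe2l2, 0 passed by limma, 1 had an unadjusted p under 0.05, and their differences ran from -0.07 to 0.24. Gpx8 was at 68.7 RPKM (58.7 to 126) in wild type, where library 8 was far above the other 7, and at 155 RPKM (129 to 222) in Ucp1-KO, a difference of 1.12 (SE 0.16, limma adjusted p = 2.3e-06). Sod2 was at 65.3 RPKM (58.8 to 75.7) and 109 RPKM (101 to 128), a difference of 0.76 (SE 0.12, limma adjusted p = 1.8e-05), and Gsta4 differed by 0.86 (SE 0.19, limma adjusted p = 0.0012). The groups did not overlap for these 3 genes. Gpx4 (0.68, SE 0.14), Prdx2 (0.57, SE 0.09), Prdx3 (0.46, SE 0.09) and Txn2 (0.42, SE 0.09) were also higher. Srxn1 was at 16.8 RPKM (11.7 to 24.6) in Ucp1-KO, higher by 0.59 (SE 0.12), and Txnrd1 by 0.32 (SE 0.09). The lower call, Gpx7 (-0.30), was lost under another scaling. The marker calls were 2 of 5 adipocyte and 5 of 5 brown depot markers higher, and 4 of 11 macrophage, 4 of 4 B cell, 1 of 5 endothelial and 2 of 5 fibroblast markers lower. Brown depot sums were 83.8 RPKM (64.5 to 137) in wild type and 310.2 RPKM (260.1 to 389) in Ucp1-KO, and the part of these markers in the result was not tested.

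At 20 °C Srxn1 was the member with the largest genotype difference in iWAT, and Gclm, Sod2 and Txnrd2 were higher with it. Of 45 members 15 were higher in Ucp1-KO and 12 lower, against 9.85% of all genes higher and 55.0% lower, with 23 higher and 4 lower after median-ratio scaling (all genes 23.7% and 26.3%) and 17 higher and 8 lower after quantile normalization (all genes 23.2% and 22.4%). Srxn1 was at 13.1 RPKM (10.8 to 14.9) in wild type and 37.4 RPKM (28.9 to 59.5) in Ucp1-KO, 3.08 times the wild-type mean, a difference of 1.52 (SE 0.12, limma adjusted p = 2e-13). Gclm was at 17.6 RPKM (14.3 to 19.8) and 26.0 RPKM (23.8 to 34.1), a difference of 0.65 (SE 0.10, limma adjusted p = 1e-06). Neither gene had overlapping groups, and the same holds for Sod2 (0.82, SE 0.12) and Txnrd2 (0.65, SE 0.10). Txnrd1 was higher (0.39, SE 0.09) and Nqo1 (-0.13, SE 0.12) did not pass. Nfe2l2 (-0.17) and Gclc (-0.22) were called lower as deposited, but the differences were 0.14 and 0.08 after median-ratio scaling and 0.0 and 0.08 after quantile normalization, so no direction is given for them. Gstt1 (-0.96, SE 0.15), Gpx3 (-0.91, SE 0.16) and Prdx4, of the endoplasmic reticulum (-0.71, SE 0.09), were lower, also under both other scalings. Brown depot markers summed to 302 RPKM (160.1 to 395) in wild type and 1255 RPKM (976 to 2574) in Ucp1-KO at 20 °C, and macrophage markers to 1078 RPKM (852 to 1715) and 666 RPKM (392 to 825). The marker calls were 5 of 5 brown depot markers higher, and 10 of 11 macrophage, 6 of 6 T cell, 4 of 4 B cell, 4 of 5 endothelial, 2 of 3 epithelial, 5 of 5 fibroblast, 1 of 5 adipocyte and 2 of 5 inguinal depot markers lower. Their part in the result was not tested.

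Between 20 °C and 30 °C Sod2, Txnrd2, Prdx3, Gpx4 and Gsta4 rose in iWAT of both genotypes and Gpx3 fell in both. In wild type 16 members were higher at 20 °C and 4 lower, against 7.25% of all genes higher and 12.4% lower, with 16 higher and 1 lower after median-ratio scaling (all genes 9.46% and 5.40%) and 19 higher and 2 lower after quantile normalization (all genes 10.3% and 5.62%). In Ucp1-KO 13 were higher and 14 lower, against 9.02% of all genes higher and 51.4% lower, with 19 higher and 5 lower after median-ratio scaling (all genes 21.9% and 17.7%) and 18 higher and 6 lower after quantile normalization (all genes 19.6% and 17.0%). Sod2 reached 119 RPKM (97.2 to 143) at 20 °C in wild type, a rise of 0.84 (SE 0.12), and 199.8 RPKM (168 to 345) in Ucp1-KO, a rise of 0.89 (SE 0.12), each without overlap. Gsta4 rose by 1.24 (SE 0.19) in wild type and 0.55 (SE 0.19) in Ucp1-KO, and Txnrd2 by 0.59 (SE 0.10) and 0.94 (SE 0.10). Gpx3 was at 336 RPKM (271 to 478) at 20 °C and 619 RPKM (489 to 698) at 30 °C in wild type, and at 173 RPKM (141 to 275) and 719.9 RPKM (513 to 890.4) in Ucp1-KO. Neither pair of groups overlapped, and the differences were -0.82 (SE 0.16, limma adjusted p = 0.00036) and -1.92 (SE 0.16, limma adjusted p = 8.4e-13). Srxn1 rose in Ucp1-KO (1.19, SE 0.12) and did not pass in wild type (0.26, SE 0.12), and Gclm likewise (0.66 and 0.19). Nqo1, Nfe2l2 and Gclc were called lower in Ucp1-KO as deposited (-0.27, -0.27 and -0.42), and all 3 calls were lost under another scaling. In wild type the same holds for Nfe2l2 (-0.17) and Gclc (-0.20), and Nqo1 (-0.19) did not pass. Txnrd1 did not pass in either genotype (0.06 and 0.12). The marker calls at 20 °C were 5 of 5 brown depot markers higher, and 2 of 5 endothelial and 2 of 5 fibroblast markers lower in wild type. In Ucp1-KO they were 5 of 5 brown depot markers higher, and 9 of 11 macrophage, 4 of 6 T cell, 1 of 4 B cell, 4 of 5 endothelial, 1 of 6 skeletal muscle, 5 of 5 fibroblast, 2 of 5 adipocyte and 3 of 5 inguinal depot markers lower, and their part in the results was not tested.

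The test of the difference in temperature response between genotypes called 2 members upward in iWAT, Srxn1 by 0.93 (SE 0.17, limma adjusted p = 0.00065) and Gclm by 0.47 (SE 0.14, limma adjusted p = 0.027), and 8 downward. Over all genes 2.15% were called upward and 11.1% downward, and the members gave 3 higher and 2 lower after median-ratio scaling (all genes 6.91% and 1.52%) and 2 higher and 6 lower after quantile normalization (all genes 631 and 239 of 15897). The downward calls kept under both other scalings were Gpx3 with -1.10 (SE 0.23, limma adjusted p = 0.0021) and Prdx4 with -0.60 (SE 0.13, limma adjusted p = 0.0021). Nfe2l2 (-0.10), Nqo1 (-0.09), Gclc (-0.22) and Txnrd1 (0.07) did not pass. The sign for Srxn1 and Gclm is the reverse of that in iBAT, and the difference between the depots was not tested. The marker calls for the difference in response in iWAT were 1 of 11 macrophage, 1 of 5 fibroblast and 1 of 5 adipocyte markers lower. Their part in the result was not tested.

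On high fat diet 0 of 45 members differed between the genotypes in iWAT by limma, and 2 (Gsta3, -0.57, and Txnrd3, -0.29) had an unadjusted p under 0.05. Over all genes 0.195% were called higher and 0.0881% lower. The other pseudocount, filter, scalings and the RefSeq rows also gave 0, and without the libraries that stand apart 1 was called, Txnrd3. Srxn1 was at 11.8 RPKM (9.25 to 14.4) in wild type and 12.3 RPKM (9.00 to 14.3) in Ucp1-KO, and the 95% interval of its difference, -0.25 to 0.24, leaves out the size seen in iBAT. For Nfe2l2, Nqo1, Gclc, Gclm and Gsr the differences ran from -0.09 (Nfe2l2) to 0.09 (Nqo1).

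The diet itself moved Sod3 up and Gpx8 and Gpx3 down in iWAT of both genotypes. In wild type 11 members were higher on high fat diet and 2 lower, against 9.69% of all genes higher and 3.84% lower, with 7 higher and 2 lower after median-ratio scaling (all genes 6.59% and 4.95%) and 7 higher and 5 lower after quantile normalization (all genes 8.38% and 4.97%). In Ucp1-KO 4 were higher and 14 lower, against 16.1% of all genes higher and 8.31% lower. After median-ratio scaling 3 were higher and 16 lower (all genes 9.10% and 10.9%), and after quantile normalization 4 and 15 (all genes 9.04% and 11.4%). Sod3 was at 259 RPKM (141 to 356) on high fat diet and 114 RPKM (99.9 to 128) on control diet in wild type, a difference of 1.04 (SE 0.16, limma adjusted p = 1.9e-05), and at 189 RPKM (156 to 413) and 115 RPKM (92.0 to 137) in Ucp1-KO, a difference of 0.98 (SE 0.16, limma adjusted p = 1.4e-05). The diets did not overlap in either genotype. Gpx8 was at 31.8 RPKM (25.9 to 85.0) on high fat diet in wild type, a difference of -0.98 (SE 0.16, limma adjusted p = 3e-05) in which library 7 reached into the control range, and at 35.3 RPKM (26.7 to 43.5) in Ucp1-KO, a difference of -2.17 (SE 0.16, limma adjusted p = 2.4e-13) without overlap. Gpx3 differed by -0.67 (SE 0.16) and -0.71 (SE 0.16), and the call in Ucp1-KO was lost without the libraries that stand apart. Prdx6 rose in wild type (0.60, SE 0.16). Gsta4 (-0.78, SE 0.19), Prdx3 (-0.56, SE 0.09), Txn2 (-0.46, SE 0.09), Srxn1 (-0.45, SE 0.12) and Sod2 (-0.44, SE 0.12) fell in Ucp1-KO. Brown depot markers summed to 61.9 RPKM (39.1 to 73.4) on high fat diet and 310.2 RPKM (260.1 to 389) on control diet in Ucp1-KO iWAT. The marker calls were 1 of 5 endothelial, 1 of 5 fibroblast and 2 of 5 inguinal depot markers higher, and 4 of 6 skeletal muscle, 4 of 5 brown depot and 1 of 5 inguinal depot markers lower in wild type. In Ucp1-KO they were 2 of 11 macrophage, 1 of 5 endothelial, 1 of 5 fibroblast and 3 of 5 inguinal depot markers higher, and 5 of 5 erythroid, 4 of 6 skeletal muscle, 5 of 5 brown depot and 1 of 5 inguinal depot markers lower. Their part in the result was not tested. Txnrd1 was called higher in wild type (0.28), a call lost under another scaling, and Srxn1 there (0.14) and Txnrd1 in Ucp1-KO (-0.09) did not pass. Nqo1, Gclc, Gclm and Nfe2l2 did not pass in either genotype, with differences from -0.18 to 0.16.

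**Figure D4:**
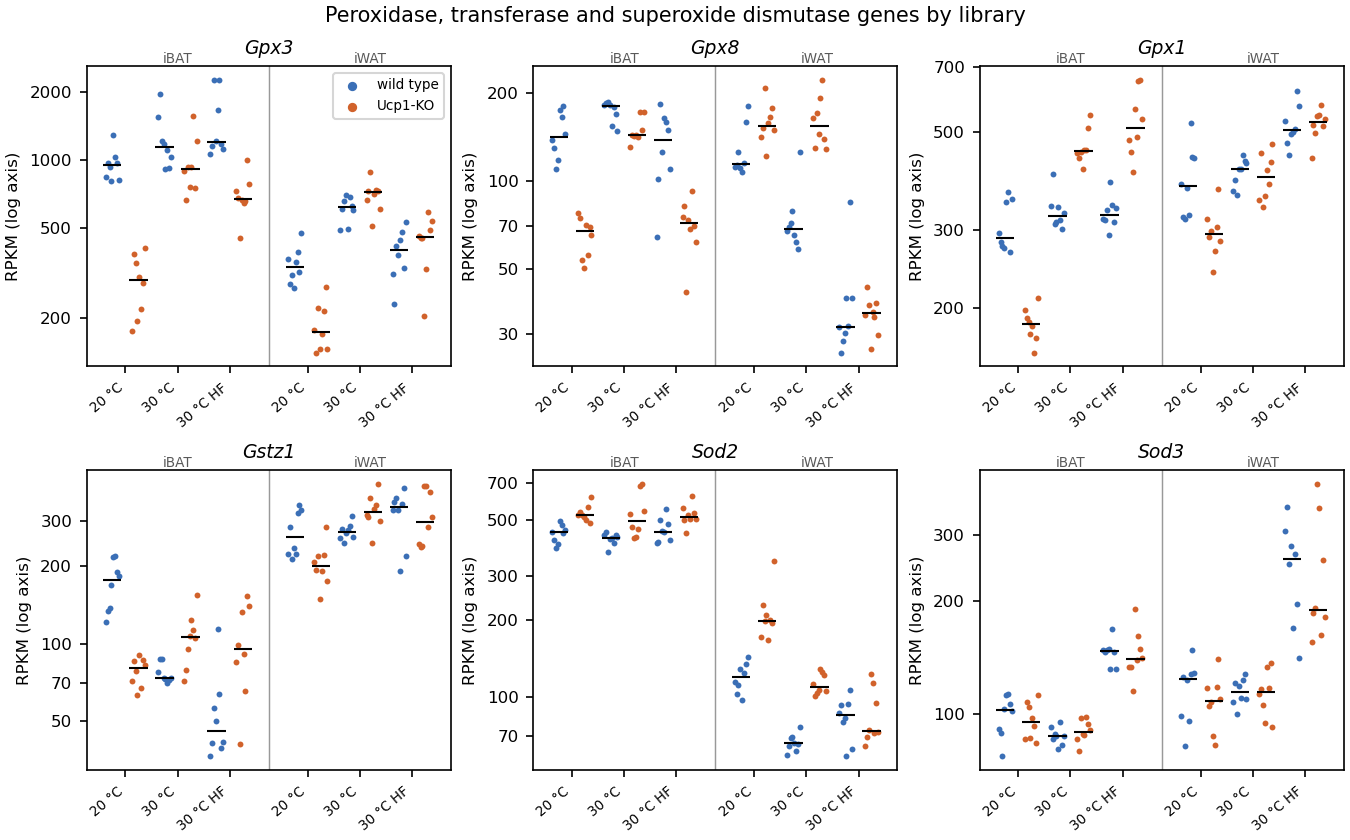
Level of 6 genes in each of the 96 libraries (RPKM, log axis), by depot, temperature and diet, with wild type in blue and Ucp1-KO in orange and bars at the medians of 8 libraries. Within each depot Gpx3 has its lowest median in Ucp1-KO at 20 °C and Sod3 its highest medians on high fat diet, Gpx8 is lowest in iWAT on high fat diet, and every iWAT library has less Sod2 than every iBAT library.

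Between brown and white fat of wild-type mice at 30 °C on control diet, Sod2, Srxn1, Gss, Txn2 and Gpx4 were higher in iBAT. Gsta3, Gstz1 and Gstt1 were higher in iWAT. Most members were called in this comparison, as were 13263 of all 16310 genes, so their number marks nothing particular to the set. The transferases went both ways, 7 of 17 being called higher in iBAT (Gsta4, 1.38, Gsto1, 0.71, Gsto2, 0.68, Gstp1, 0.41, Gstm4, 0.35, Gstm5, 0.32, and the uncertain row of Gstt3) and 5 lower. Of 45 members 23 were higher in iBAT and 15 lower, against 19.5% of all genes higher and 61.8% lower, with 26 higher and 10 lower after median-ratio scaling (all genes 29.0% and 49.7%) and 28 higher and 14 lower after quantile normalization (all genes 40.7% and 34.9%). Sod2 was at 425 RPKM (373 to 445) in iBAT and 65.3 RPKM (58.8 to 75.7) in iWAT, a difference of 2.65 (SE 0.10, limma adjusted p = 1.3e-39). Txn2 (1.59, SE 0.09), Prdx3 (1.40, SE 0.08), Prdx5 (1.31, SE 0.11) and Gpx4 (1.56, SE 0.13) were higher in iBAT as well. Srxn1 differed by 2.31 (SE 0.16, limma adjusted p = 2e-23) and Gss by 1.72 (SE 0.11, limma adjusted p = 1.3e-26). The depots did not overlap for any of these 7 genes, which was not counted over all genes. Gclm (0.88) and Txnrd1 (1.08) were higher in iBAT and Nfe2l2 (-0.59) and Gsr (-0.72) lower, while for Nqo1 (-0.54) and Gclc (-0.22) the sign turned under another scaling. Gsta3 was at 5.51 RPKM (3.44 to 8.28) in iBAT and 29.5 RPKM (18.9 to 51.9) in iWAT, a difference of -2.28 (SE 0.26, limma adjusted p = 4.5e-13). Gstz1 (-1.83, SE 0.17), Gstt1 (-1.83, SE 0.14) and Gpx7 (-1.13, SE 0.11) were lower in iBAT too, and none of these 4 genes had overlapping depots. The depots come from the same mice, but the labels do not match them, so the fit took the libraries as independent. The marker calls in iBAT against iWAT were 2 of 5 endothelial, 2 of 7 skeletal muscle and 6 of 6 brown depot markers higher, and 11 of 11 macrophage, 6 of 6 T cell, 4 of 4 B cell, 3 of 5 endothelial, 2 of 3 epithelial, 5 of 5 fibroblast, 3 of 5 adipocyte and 5 of 5 inguinal depot markers lower, and their part in the result was not tested.

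**Figure D5:**
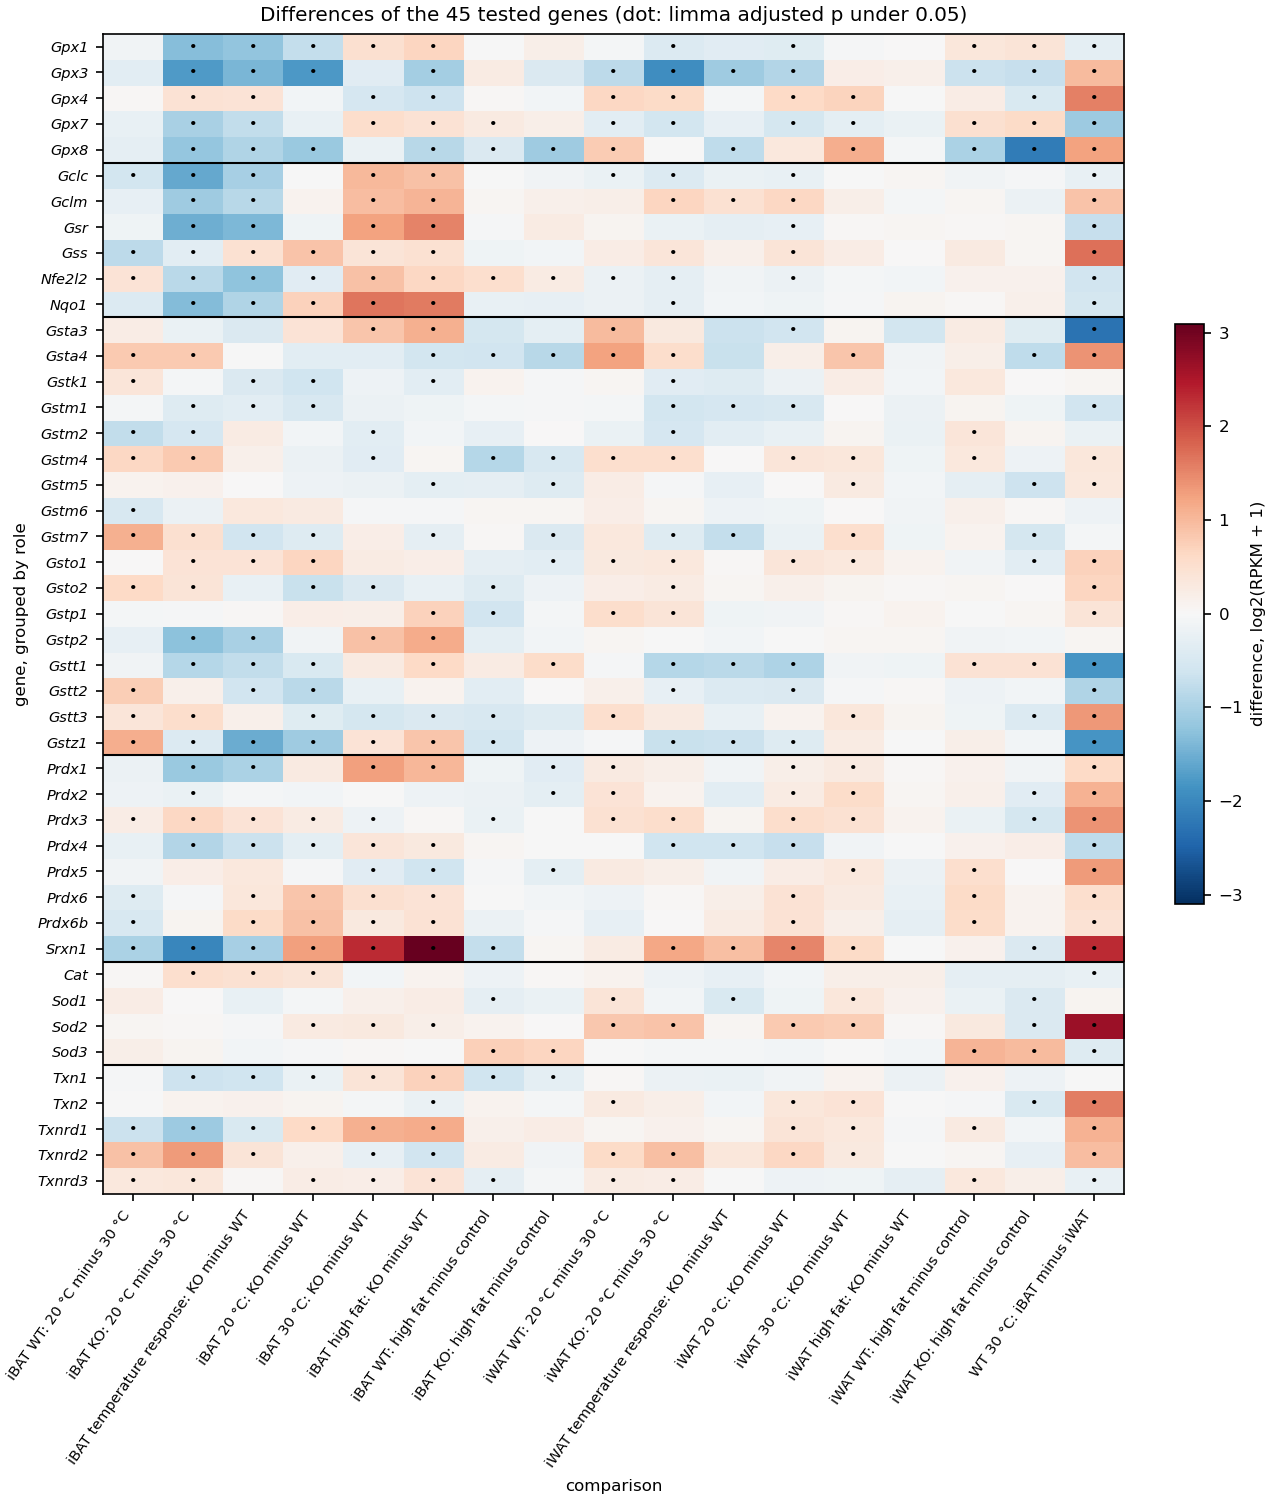
Differences on the log2(RPKM + 1) scale of the 45 tested genes (vertical, grouped by role with black lines between groups) in 17 comparisons (horizontal). Red is higher in the group named first, blue lower, and a dot marks a limma adjusted p under 0.05; the strongest red is Srxn1 in iBAT on high fat diet (3.10), and the comparison of genotypes in iWAT on high fat diet has no dot.

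Other genes of the pathway, from lists without members, were read in the same comparisons. Of 22 further NRF2 pathway genes 17 were higher and 1 lower in Ucp1-KO iBAT at 30 °C on control diet, against 54.2% and 10.5% of all genes, and the counts were 15 higher and 4 lower after median-ratio scaling and 15 higher and 4 lower after quantile normalization. Their median difference was 0.65, against 0.27 over all genes. Sqstm1, an autophagy receptor that binds KEAP1, differed by 2.14 (limma adjusted p = 5.1e-14) on control diet, and Hmox1, which degrades heme, by 1.89 (limma adjusted p = 3e-10). Slc7a11, the cystine importer that feeds glutathione synthesis, was at 0.0961 RPKM (0 to 0.247) in wild type and 2.81 RPKM (1.85 to 5.27) in Ucp1-KO, without overlap. Every wild-type iBAT library was under the filter of 0.5 RPKM, near the level of a few reads. The gene passed that filter only through the Ucp1-KO groups at 30 °C, where it is high, so its difference is a description and no support. Slc7a11 is nevertheless inside the counts and the median of this list. It is among the genes higher in Ucp1-KO at 30 °C on both diets and lower at 20 °C within Ucp1-KO. Keap1 differed by 0.43 (limma adjusted p = 2.4e-07). On high fat diet 16 of the list were higher and 1 lower, against 52.8% and 11.0% of all genes, with 13 higher and 4 lower after median-ratio scaling and 14 higher and 4 lower after quantile normalization. Between genotypes at 20 °C 13 were higher and 1 lower, against 24.7% and 13.1% of all genes, with 14 higher and 1 lower after median-ratio scaling and 14 higher and 1 lower after quantile normalization. In Ucp1-KO iBAT 4 were higher and 17 lower at 20 °C than at 30 °C, against 13.9% and 59.5% of all genes. The counts were 5 higher and 13 lower after median-ratio scaling and 4 higher and 14 lower after quantile normalization. In wild-type iBAT 2 were higher and 11 lower at 20 °C as deposited, against 11.6% and 33.0% of all genes. For the difference in response 4 were called upward and 7 downward as deposited, Slc7a11 among the latter, against 11.9% and 40.5% of all genes. In iWAT 2 were higher and 2 lower in Ucp1-KO at 30 °C on control diet, against 7.54% and 16.2% of all genes, and 0 and 0 by limma on high fat diet, where 2 had an unadjusted p under 0.05 and both other scalings gave 0 and 0.

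Of 22 further glutathione and thiol genes tested, 13 were higher and 3 lower in Ucp1-KO iBAT on control diet, a share higher near the 54.2% of all genes, and 10 higher and 4 lower after median-ratio scaling and 8 higher and 3 lower after quantile normalization. On high fat diet 15 were higher and 2 lower, against 52.8% and 11.0% of all genes, with 9 higher and 5 lower after median-ratio scaling and 12 higher and 5 lower after quantile normalization.

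NADPH is the reductant that glutathione reductase and the thioredoxin reductases spend. Of 10 genes of its supply, 6 were higher and 2 lower at 20 °C than at 30 °C in wild-type iBAT, against 11.6% and 33.0% of all genes, with 6 higher and 0 lower after median-ratio scaling and 6 higher and 1 lower after quantile normalization. In Ucp1-KO iBAT 8 were higher and 2 lower, against 13.9% and 59.5% of all genes, with 8 higher and 2 lower after median-ratio scaling and 8 higher and 1 lower after quantile normalization. Between genotypes at 30 °C on control diet 4 were higher and 2 lower in Ucp1-KO, against 54.2% and 10.5% of all genes, with 1 higher and 4 lower after median-ratio scaling and 1 higher and 5 lower after quantile normalization. Me1, the cytosolic malic enzyme, rose at 20 °C by 1.75 (limma adjusted p = 1.7e-09) in wild-type iBAT and 1.61 (limma adjusted p = 2e-09) in Ucp1-KO iBAT. In iWAT 6 were higher and 1 lower at 20 °C in wild type, against 7.25% and 12.4% of all genes, and 8 higher and 1 lower in Ucp1-KO, against 9.02% and 51.4% of all genes. In Ucp1-KO iWAT at 20 °C 6 were higher and 2 lower than in wild type, against 9.85% and 55.0% of all genes, with 8 higher and 1 lower after median-ratio scaling and 6 higher and 1 lower after quantile normalization. G6pdx, the first enzyme of the pentose phosphate pathway, was higher there by 0.99 (limma adjusted p = 2.9e-08). These lists are measured in the same libraries as the members and are no independent support for them.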

How the data were processed

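Messenger RNA from stranded libraries of iBAT and iWAT was sequenced, 8 animals a group, so p-values measure the spread between animals. The authors deposited 1 table of RPKM per transcript row and library; its sources name CASAVA and bcl2fastq (per the submitters' processing notes, no versions given), while aligner, counter and build were not given in the sources used here. Of the transcript rows 13.8% have no Entrez identifier and were left out. The depth was chosen so that most low values were whole multiples of 1 read, which then held for 95.0% to 95.7% of those examined. It is the smallest depth that fits and rests on GENCODE transcript lengths, which may differ from those behind the RPKM. At this depth 1 read on 1 kilobase is worth 0.052 to 0.112 RPKM, and levels near that are imprecise.

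Each gene was represented by its row of highest mean. Values were taken as log2(RPKM + 1), genes at 0.5 RPKM or more in at least 8 libraries were kept (14807 in iBAT, 15897 in iWAT), and limma 3.58.1 in R 4.3.3 (trend, Benjamini-Hochberg adjustment over all genes) was fitted on 6 group means per depot, and on 12 for the depots. A difference on this scale understates the change of low genes. The script was tested on simulated data. Alternatives were a pseudocount of 0.1, no filter, median-ratio scaling and quantile normalization. After seeing the data, RefSeq rows and leaving out the libraries with a median correlation under 0.965 were added. Leaving out a replicate in turn was not needed with 8 a group. By the rule for named genes any member could be named, with values for up to 6 called higher and 6 lower per comparison by size and for the 12 most abundant, and Nfe2l2, Nqo1, Gclc, Gclm, Srxn1 and Txnrd1 in each; beyond the members, Ucp1, Keap1, Slc7a11, Hmox1 and the 3 genes of smallest p in each list of other pathway genes. Further members named with values were added after their values were seen. The members and the lists of other genes and markers were chosen with earlier results of these data known. Python 3.11.15, pandas 2.3.3, numpy 2.4.6 and matplotlib 3.10.9 were used.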

Additional observations from a re-analysis of the deposited data

Results flagged for a closer look

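Over the 16 genes examined in 12 groups of 8, 19 of 192 group values had a highest or lowest library farther from the next than Dixon's 95% limit allows, which chance alone does for about 1 in 20 groups. The libraries far from their group were Nqo1 3.17 and Gclc 9.45 RPKM in library 4 of Ucp1-KO iBAT at 20 °C on control diet, Txnrd1 152 and Gsr 46.5 RPKM in library 7 of Ucp1-KO iBAT at 30 °C on control diet, Gpx3 1290 RPKM in library 5 of wild-type iBAT at 20 °C on control diet, Gsta3 10.3 RPKM in library 6 of wild-type iBAT at 20 °C on control diet. Others were Gsr 12.8 RPKM in library 8 of wild-type iBAT at 20 °C on control diet, Gstz1 114 and Gsta3 9.64 RPKM in library 5 of wild-type iBAT on high fat diet, Gpx1 401 RPKM in library 2 of wild-type iBAT at 30 °C on control diet, Gsr 18.4 RPKM in library 8 of wild-type iBAT at 30 °C on control diet. In iWAT they were Sod2 345 and Prdx3 249 RPKM in library 8 of Ucp1-KO iWAT at 20 °C on control diet, Gsta3 113 RPKM in library 6 of wild-type iWAT at 20 °C on control diet, Gclm 22.0, Gpx8 85.0 and Prdx3 107 RPKM in library 7 of wild-type iWAT on high fat diet, Gsta3 51.9 RPKM in library 7 of wild-type iWAT at 30 °C on control diet. A last value was Gpx8 126 RPKM in library 8 of wild-type iWAT at 30 °C on control diet.

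The difference between 20 °C and 30 °C differed between genotypes by the limma test of the difference itself (Ucp1-KO minus wild type, log2 scale) in iBAT for Gstz1 (-1.54), Gpx3 (-1.41), Gsr (-1.38), Nfe2l2 (-1.26), Gpx1 (-1.22), Srxn1 (-1.04), Gclc (-1.02), Prdx1 (-0.97), Gpx8 (-0.93), Nqo1 (-0.93), Gclm (-0.85), Txnrd1 (-0.47), Prdx3 (0.43). In iWAT it did for Gpx3 (-1.10), Gpx8 (-0.80), Gstz1 (-0.67), Gclm (0.47), Srxn1 (0.93). The calls of Nqo1 and Txnrd1 in iBAT and of Gpx8 and Gstz1 in iWAT were lost under another scaling. These lists do not hold every member called, and Prdx4 in iWAT is among those left out.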

How the results depend on the processing

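Of 198 differences of named genes, the pseudocount of 0.1 kept the direction and the side of the threshold of all 198, the absence of a filter of 190, leaving out the libraries that stand apart of 190, the RefSeq rows of 192, quantile normalization of 180 and median-ratio scaling of 177. The number of members called moved by more than 1.5 times in iBAT of Ucp1-KO on high fat against control diet (7 without the libraries that stand apart, 13 with them), in the iWAT temperature response (5 after median-ratio scaling, 10 as deposited) and in iWAT genotypes on high fat diet (1 without the libraries that stand apart, 0 with them). Signs turned, after median-ratio scaling and quantile normalization, for Gclc between depots (0.09 and 0.24) and between genotypes in iWAT at 20 °C (0.08 and 0.08), and for Nfe2l2 in that comparison (0.14 and 0.0). They turned for Nfe2l2 with temperature in Ucp1-KO iWAT after median-ratio scaling (0.03), and for Nqo1 between depots (0.22) and with temperature in Ucp1-KO iWAT (0.0) after quantile normalization. In the RefSeq row Gstt3 turned between genotypes in iBAT at 30 °C (0.11) and with temperature in Ucp1-KO iBAT (-0.35). The cause was not tested. Depth limits low genes such as Nqo1, Gstp2 and Gstm7. No paired analysis was possible because the labels share no replicate number between groups and match no iBAT library to an iWAT library.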

Other observations

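The 7 members that were not tested were near or under the level of a few reads in these fat depots. Their means over the 96 libraries were 0.205 RPKM for Gstt4, 0.195 for Gpx2, 0.0639 for Gstm3, 0.0539 for Gsta1, 0.0310 for Gsta2, 0.0196 for Gpx6 and 0.00510 for Gpx5. The members with the highest means were Gpx3 (693 RPKM), Gpx1 (389 RPKM) and catalase (382 RPKM).

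The row that stood for Gstt3 correlated with the RefSeq row of Gstt3 at a Pearson r of -0.714 over the 96 libraries and with its neighbour Ddt at 0.976, as a description of libraries that share depots and groups.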
